A study of Rattus norvegicus with 78 samples.

Results

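Mitochondrial ribosomal proteins build the ribosome that works inside mitochondria. Their genes were compared between Flinders Sensitive Line (FSL) rats and Flinders Resistant Line (FRL) rats in the prefrontal/frontal cortex (P/FC) and the hippocampus (HIP). Members were the genes whose symbol in the array annotation starts with Mrpl or Mrps and a digit. Each gene was read from its brightest probeset, a set of short oligonucleotides that together report 1 transcript, if its mean intensity was above 30. All 73 genes with such a symbol met this rule, 46 named Mrpl and 27 named Mrps, among 14217 genes with a probeset of their own on the array. They came from 97 probesets, and 18 genes had more than 1.

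Both lines derive from Sprague-Dawley rats, bred apart for a strong (FSL) or weak (FRL) response to the anticholinesterase diisopropylfluorophosphate, and FSL rats serve as a model of depression-like behaviour with FRL rats as the control. The rats were male, and both lines had been through a forced swim test a week before their brains were taken. Each region was measured on 39 arrays, with 9 FSL and 12 FRL rats in cohort 1 and 8 FSL and 10 FRL rats in cohort 2. P/FC stands for the whole frontal lobe of the right hemisphere. Both regions came from the same animals, but the labels do not tie arrays to animals, so arrays of both regions were treated as independent where they were compared. The lines are selected stocks that can differ in any part of the genome, and this limits them as a model of any single cause.

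The mitochondrial ribosome translates the few proteins encoded by mitochondrial DNA, which are core subunits of the respiratory chain and of the ATP synthase. Its own proteins are all encoded in the nucleus, made in the cytosol and imported. The small subunit holds the decoding centre and the large subunit joins the amino acids. Some of the proteins have bacterial counterparts and others are found only in mitochondria. The name does not always give the place, since the products of Mrps30 and Mrps18a sit in the large subunit. With these placements the members comprised 48 large subunit genes and 25 small subunit genes, and 41 of the 73 have a bacterial homologue.

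Of the 73 members, 59 had a promoter in the RefSeq table used here (build GRCr8), each 300 bases long around 1 annotated start. The stretch held the outer 5' end of the gene for 50 of the 59 and lay elsewhere for 9. The promoters were searched on both strands for 4 short motifs known from genes of mitochondrial proteins or from housekeeping genes. These were the NRF1 consensus, CCGGAAG (ETS factors, among them GABPA), AAGATGGC (YY1) and GGGCGG (SP1). The NRF1 motif was present in 9 of the 59 promoters (15.3%) and in 4.71% of all 27457 promoters of that length. The ETS motif was present in 20 (33.9%, against 9.22% of all promoters), the YY1 motif in 14 (23.7%, against 3.44%) and the SP1 motif in 30 (50.8%, against 34.9%). A match describes the letters and is not evidence of binding. The promoters of 3 genes are printed because the line comparison turns on them, all higher in FSL rats in both regions, and each holds the outer 5' end of its gene. They read 5' to 3' in the direction of the gene, and capitals mark a match to any of the 4 motifs on either strand. The promoters of Mrps6 and Mrps30 each hold 1 YY1 match, and that of Mrps2 holds no match.
Mrps6, chr11:44778417-44778716, plus strand: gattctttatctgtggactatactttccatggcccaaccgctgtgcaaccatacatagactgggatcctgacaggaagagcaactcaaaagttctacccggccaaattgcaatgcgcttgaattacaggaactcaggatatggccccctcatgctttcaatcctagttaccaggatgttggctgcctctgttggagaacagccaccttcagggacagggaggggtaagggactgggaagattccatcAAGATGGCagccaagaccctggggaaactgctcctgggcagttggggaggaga
Mrps2, chr3:32200827-32201126, plus strand: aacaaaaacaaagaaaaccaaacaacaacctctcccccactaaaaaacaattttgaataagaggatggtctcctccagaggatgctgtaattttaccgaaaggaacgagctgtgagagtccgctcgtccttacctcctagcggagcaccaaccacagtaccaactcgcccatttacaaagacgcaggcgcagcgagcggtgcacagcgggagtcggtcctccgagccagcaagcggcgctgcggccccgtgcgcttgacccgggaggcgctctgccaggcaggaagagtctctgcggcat
Mrps30, chr2:52195855-52196154, minus strand: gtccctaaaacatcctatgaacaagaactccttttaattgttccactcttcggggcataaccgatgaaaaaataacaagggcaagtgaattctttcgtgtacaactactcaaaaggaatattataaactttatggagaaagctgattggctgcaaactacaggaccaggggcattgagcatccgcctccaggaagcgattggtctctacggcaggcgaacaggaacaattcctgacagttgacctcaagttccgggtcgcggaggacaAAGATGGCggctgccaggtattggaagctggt

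Among the 14 members that were higher in P/FC of FSL rats and had a promoter, the YY1 motif was present in 4, the SP1 motif in 2, the ETS motif in 2 and the NRF1 motif in 1. Among the other 45 the YY1 motif was present in 10, and the SP1, ETS and NRF1 motifs in 28, 18 and 8. These counts describe the letters and were not tested.

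The arrays were alike in overall brightness, with median intensities of 60.8 to 66.0 in P/FC and 56.8 to 63.0 in HIP. Testing in a region required an intensity over 30 on 50% or more of FSL arrays and of FRL arrays, and this kept 22370 probesets in P/FC and 21630 in HIP, and all 73 members passed in both. Mean intensity of the members over all 78 arrays ran between 60.5 (Mrpl14) and 932 (Mrpl17), with a median of 254, against medians of 101 and 105 over all probesets tested in P/FC and HIP. After Mrpl14 the dimmest were Mrpl44 (69.0) and Mrps27 (71.9), and below Mrpl17 the brightest were Mrpl15 (545) and Mrpl33 (532). No gene fell outside the limit of 30, and Mrpl14 was the nearest inside it. Brightness differs between probesets for reasons of their sequence, so these intensities do not rank the genes by transcript level. The 4 hippocampal markers measured were all lower in P/FC than in HIP, with a median log2 difference of -1.49.

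In P/FC the members were shifted towards higher expression in FSL rats. Over both cohorts 20 of 73 were higher and 1 was lower (limma, adjusted p under 0.05 over all probesets tested), where 9.76% of all probesets tested were higher and 8.86% lower. The median log2 change of the members was 0.09, against 0.00 over all probesets (0.0019 before rounding), and 63 of the 73 estimates were positive. Bright probesets were called more often in general. With the limit raised from 30 to 100, 21 of 65 members were higher and 1 lower, against 17.7% and 14.3% of all probesets, and in HIP 8 of 63 were higher and 1 lower, against 7.46% and 7.18%. Changes read from the brightest probesets were small, the largest being 1.38-fold. In HIP 6 members were higher and none lower, against 3.20% higher and 4.13% lower over all probesets, and the median log2 change was 0.03 with 50 positive estimates. At an unadjusted p under 0.05 in HIP 15 members were higher and 1 lower, against 9.65% and 11.5% of all probesets. The study required an unadjusted p of 0.05 in each cohort. With that threshold and the same sign in both, 14 members were higher and 1 lower in P/FC, against 5.16% and 4.70% of all probesets, and 5 were higher and none lower in HIP, against 2.14% and 2.71%. In HIP Mrpl42 also met the threshold in each cohort, with opposite signs.

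**Figure D1:**
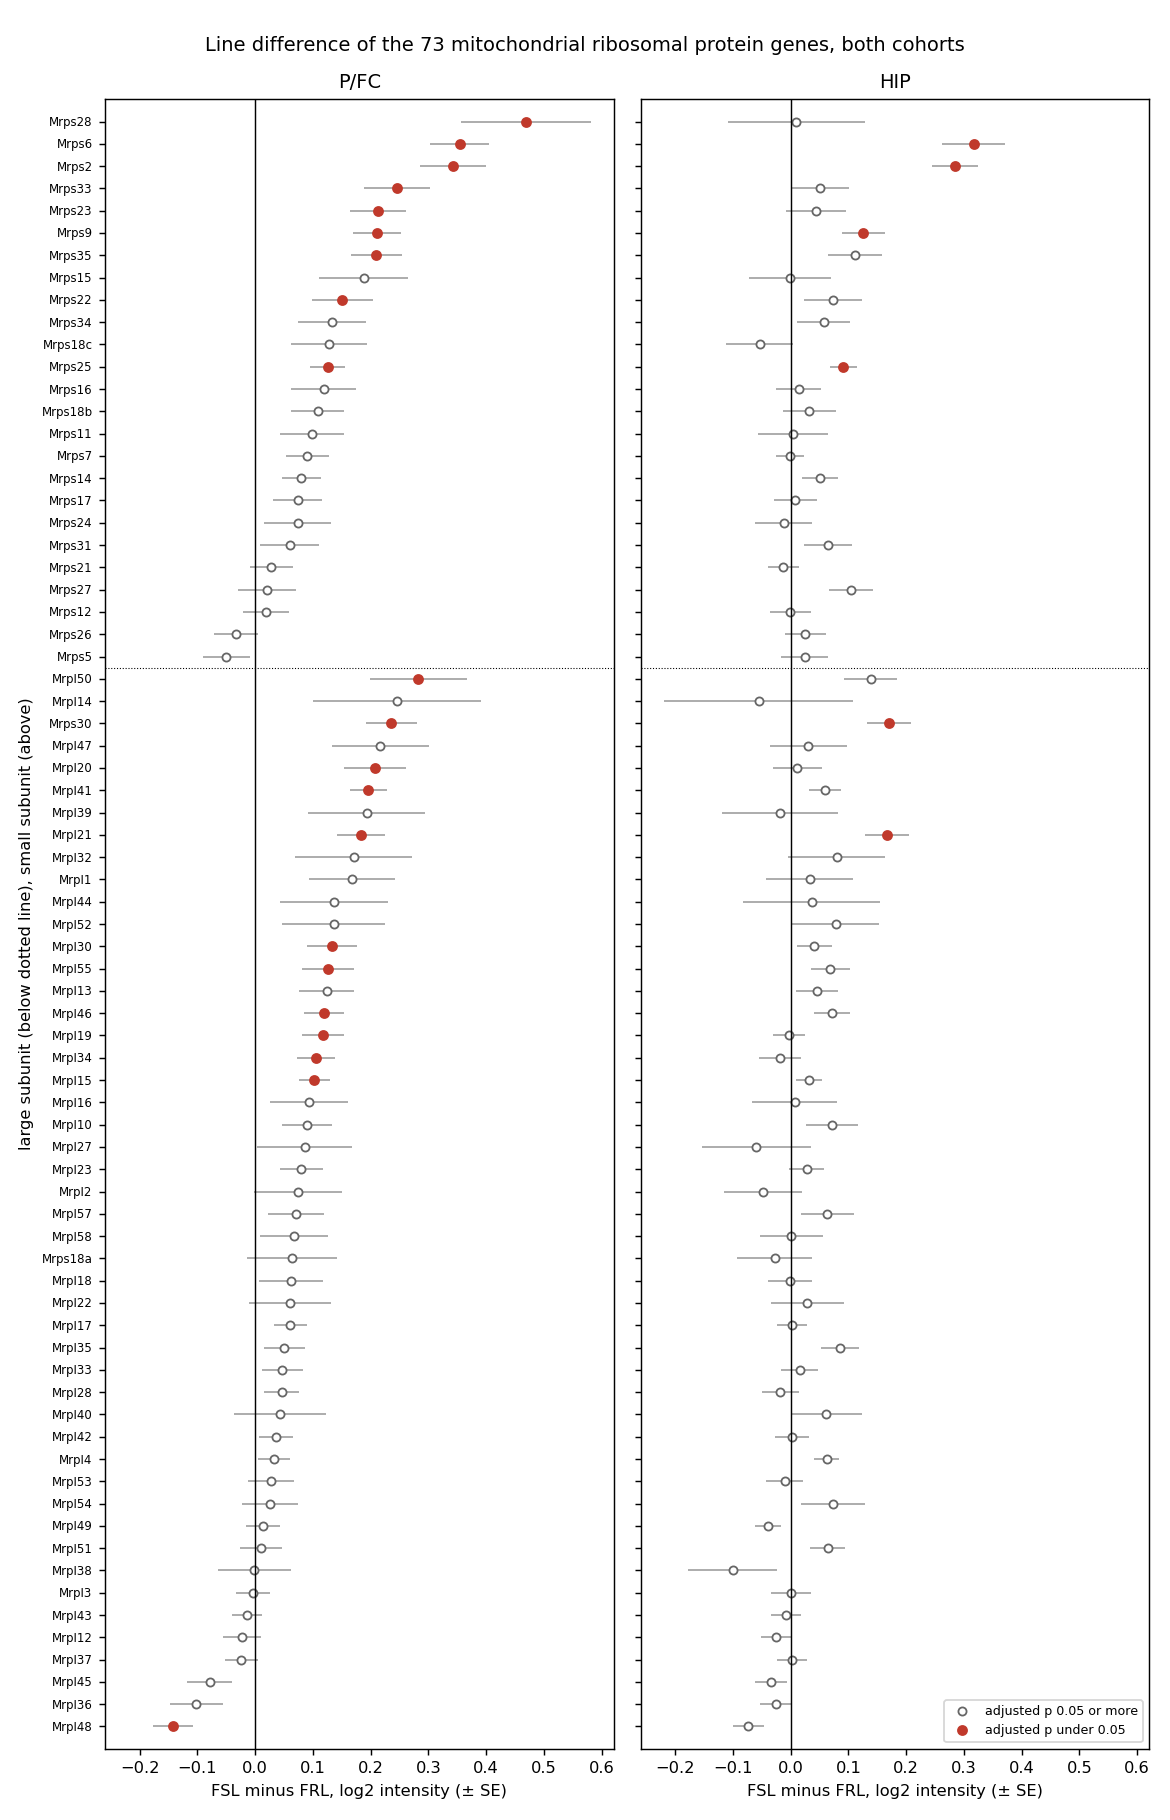
Log2 difference between FSL and FRL rats (x axis, ± SE of the limma fit over both cohorts) for each of the 73 members (y axis, small subunit above the dotted line and large subunit below), in P/FC on the left and HIP on the right. Filled points passed an adjusted p of 0.05, 21 in P/FC and 6 in HIP, and most P/FC points lie right of 0.

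All 6 members higher in HIP were also higher in P/FC, where they are 28.6% of the 21 called. They are Mrps6, Mrps2, Mrps9 and Mrps25 of the small subunit and Mrps30 and Mrpl21 of the large subunit. The first 3 and Mrpl21 have bacterial counterparts.

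Mrps6, whose bacterial counterpart is S6 of the small subunit, had intensities with a lowest, median and highest array of 279.6, 361 and 389.8 in P/FC of cohort 1 FSL rats, against 230.4, 267 and 331 in FRL rats. In cohort 2 these were 349.8, 402 and 474 in FSL rats, against 286, 304 and 375 in FRL rats. Every FSL array lay above the FRL median in both cohorts, and 7 of 9 and 4 of 8 lay above the highest FRL array. The log2 change over both cohorts was 0.35 ± 0.05 (SE, adjusted p = 5.0e-06).

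In HIP the Mrps6 values were 300.2, 368 and 446 in FSL rats of cohort 1, against 269.7, 294 and 343 in FRL rats. In cohort 2 they were 361, 389.7 and 429 in FSL rats, against 279.9, 302 and 448 in FRL rats. The highest array of cohort 2 was an FRL array, and the groups overlapped there, although all 8 FSL arrays were above the FRL median. The log2 change was 0.32 ± 0.05 (SE, adjusted p = 0.00010).

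Mrps2 encodes the counterpart of bacterial S2. In P/FC its lowest, median and highest intensities were 254, 317 and 397 in FSL rats of cohort 1, against 203, 246 and 292 in FRL rats. In cohort 2 they were 291, 363 and 396 in FSL rats, against 242, 294 and 354 in FRL rats. In each cohort 6 FSL arrays exceeded every FRL array, and the log2 change was 0.34 ± 0.06 (SE, adjusted p = 5.8e-05). In HIP the values were 271, 322 and 361 in FSL rats of cohort 1, against 219, 263 and 295 in FRL rats. In cohort 2 they were 272, 327 and 353 in FSL rats, against 249, 275 and 297 in FRL rats. Here 8 of 9 and 7 of 8 FSL arrays lay above the highest FRL array. The log2 change was 0.28 ± 0.04 (SE, adjusted p = 2.9e-06).

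Mrps2 was read by 3 probesets, and all 3 were higher in FSL rats in both regions. From the brightest to the dimmest their log2 changes were 0.34, 0.41 and 0.73 in P/FC and 0.28, 0.34 and 0.64 in HIP, with adjusted p values of 0.0010 or less in P/FC and 0.0051 or less in HIP.

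Mrps30, a large subunit protein in spite of its name, showed the same direction. In P/FC its lowest, median and highest intensities were 199, 218 and 258 in FSL rats of cohort 1, against 167, 188 and 233 in FRL rats. In cohort 2 they were 199, 222 and 267 in FSL rats, against 168, 192 and 212 in FRL rats. Each FSL array of either cohort lay above the FRL median in both regions. The log2 change was 0.24 ± 0.04 in P/FC and 0.17 ± 0.04 in HIP (SE, adjusted p = 0.00026 and 0.0028).

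Mrpl21, the counterpart of bacterial L21, had HIP medians of 176 in FSL and 151 in FRL rats of cohort 1 and of 178 in FSL and 159 in FRL rats of cohort 2. Its log2 change was 0.18 ± 0.04 in P/FC and 0.17 ± 0.04 in HIP (SE, adjusted p = 0.0020 and 0.0040). Mrps9, the counterpart of bacterial S9, changed by 0.21 ± 0.04 in P/FC and 0.13 ± 0.04 in HIP (SE, adjusted p = 0.00040 and 0.030), and its call in HIP was lost in 6 of 15 alternative fits. A second, dimmer Mrps9 probeset gave 0.02 ± 0.06 in P/FC and 0.03 ± 0.04 in HIP (SE) and passed in neither. Mrps25, a small subunit protein found only in mitochondria, changed least of the 6, by 0.13 ± 0.03 in P/FC and 0.09 ± 0.02 in HIP (SE, adjusted p = 0.0030 and 0.0089).

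**Figure D2:**
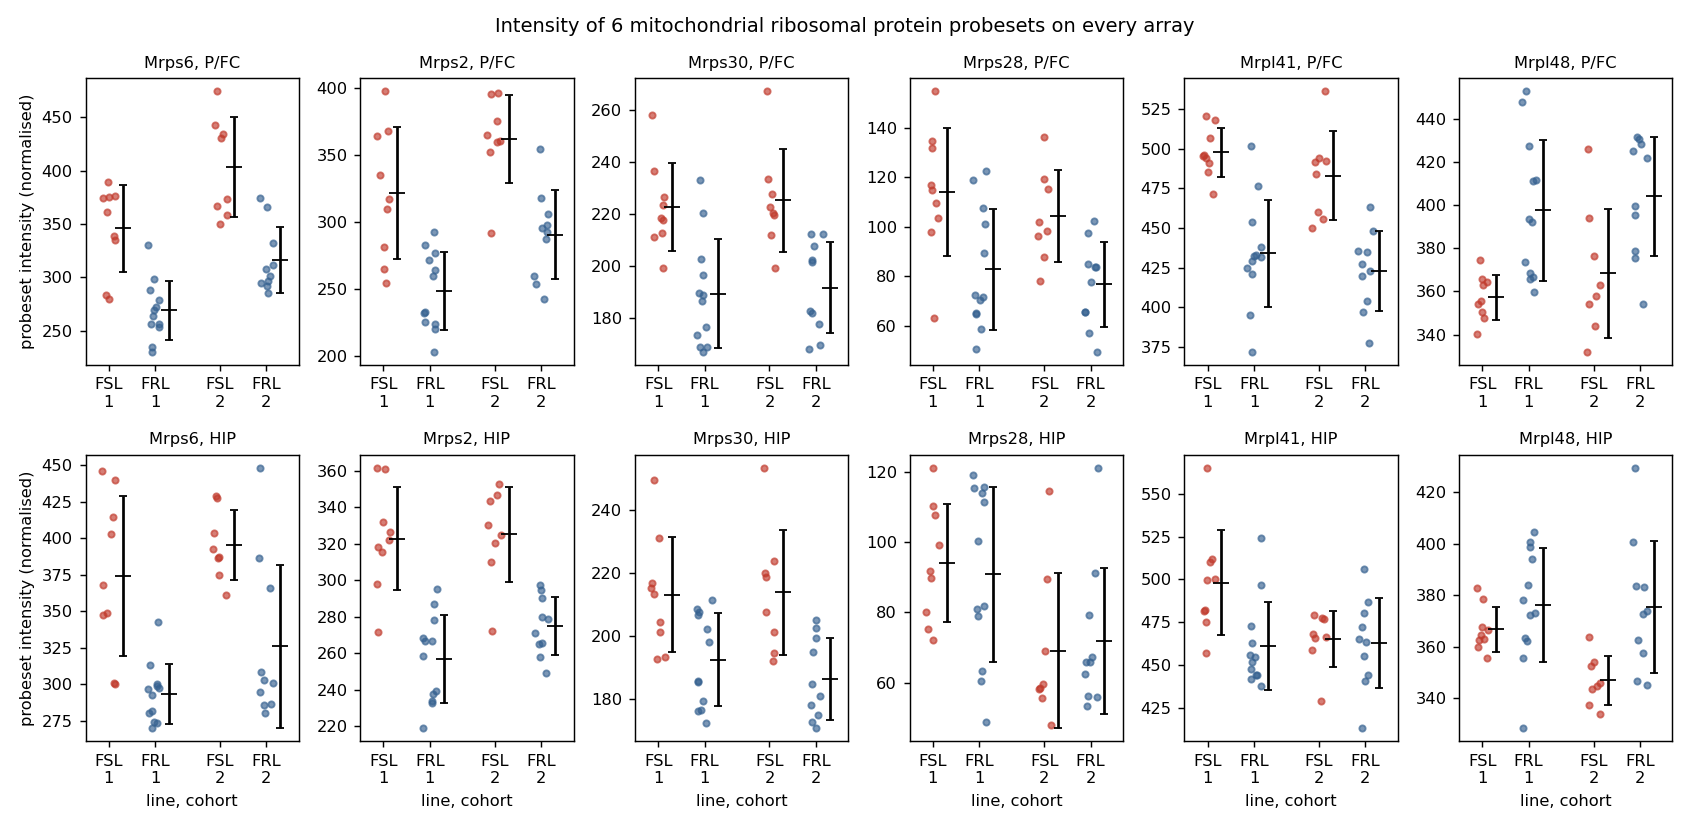
Normalised probeset intensity (y axis, linear, a separate range in each panel) on every array for 6 members, with P/FC in the upper row and HIP in the lower row. Points are arrays of FSL (red) and FRL (blue) rats of cohorts 1 and 2, and the bars beside them give the mean ± SD. Mrps6, Mrps2 and Mrps30 lie higher in FSL rats in both regions, while Mrps28 differs little between the lines in HIP. The points of the lines overlap in every panel.

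The other members higher in P/FC had no call in HIP. The largest change among the brightest probesets was that of Mrps28, a small subunit protein. Its lowest, median and highest intensities in P/FC were 63.1, 115 and 155 in FSL rats of cohort 1, against 50.5, 71.9 and 123 in FRL rats. In cohort 2 they were 78.01, 100.2 and 136 in FSL rats, against 49.5, 80.7 and 102 in FRL rats. The groups overlapped in both cohorts, and 3 FSL arrays in each exceeded every FRL array. The log2 change was 0.47 ± 0.11 in P/FC (SE, adjusted p = 0.0031), and the estimate in HIP was 0.01 ± 0.12 (SE, adjusted p = 0.97). Its probeset was dim and its error was the largest among the members called.

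Mrps33 of the small subunit had P/FC medians of 429 in FSL and 331 in FRL rats of cohort 1 and of 454 in FSL and 385 in FRL rats of cohort 2. Its log2 change was 0.25 ± 0.06 (SE, adjusted p = 0.0025). Mrpl50 of the large subunit changed by 0.28 ± 0.08 (SE, adjusted p = 0.015), but its second probeset gave -0.01 in P/FC and did not pass. Mrpl41 is also part of the large subunit. In P/FC its arrays lay between 471 and 521 in FSL rats of cohort 1, against 372 to 502 in FRL rats, and between 450.0 and 536 in FSL rats of cohort 2, against 377 to 463 in FRL rats. All FSL arrays were above the FRL median of their cohort, and the log2 change was 0.20 ± 0.03 (SE, adjusted p = 3.75e-05). Mrpl20, the counterpart of bacterial L20, changed by 0.21 ± 0.05 (SE, adjusted p = 0.0059). The remaining members higher in P/FC had log2 changes between 0.10 (Mrpl15) and 0.21 (Mrps23).

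Mrpl48 of the large subunit was the single member lower in FSL rats. In P/FC its lowest, median and highest intensities were 340.1, 355 and 374 in FSL rats of cohort 1, against 359.6, 393 and 453 in FRL rats. In cohort 2 they were 332, 361 and 426 in FSL rats, against 354, 411 and 432 in FRL rats. All 9 FSL arrays of cohort 1 and 7 of 8 of cohort 2 were below the FRL median. The log2 change was -0.14 ± 0.03 in P/FC (SE, adjusted p = 0.0037) and -0.07 ± 0.03 in HIP (SE, adjusted p = 0.082).

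By subunit, 9 of 25 small subunit members and 11 of 48 large subunit members were higher in P/FC (9.76% of all probesets), with median log2 changes of 0.12 and 0.07. In HIP the counts were 4 of 25 and 2 of 48 (3.20% of all probesets), with medians of 0.03 and 0.01. The large subunit share in HIP, 4.17%, was close to that of all probesets. Of the 41 members with a bacterial homologue 10 were higher in P/FC and none lower. Of the 32 without one 10 were higher and 1 lower (9.76% and 8.86% of all probesets). The split by subunit and by origin was not tested.

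The second probesets of the members gave a further view. Of 20 such probesets tested in P/FC 6 were higher in FSL rats and 1 lower (9.76% and 8.86% of all probesets). Of 19 in HIP 2 were higher, both of Mrps2, and 1 lower (3.20% and 4.13% of all probesets). Those higher in P/FC read Mrps2 (2 probesets), Mrpl10, Mrpl49, Mrpl57 and Mrps14. The last 4 genes had brightest probesets that did not pass. The lower one was the dimmer probeset of Mrpl52, a large subunit protein, singled out here after its values were seen. Its P/FC medians were 49.6 in FSL and 101 in FRL rats of cohort 1 and 52.3 in FSL and 116 in FRL rats of cohort 2. The log2 change was -0.87 ± 0.12 in P/FC and -0.37 ± 0.08 in HIP (SE, adjusted p = 5.4e-06 and 0.0029). The brighter Mrpl52 probeset gave 0.14 ± 0.09 in P/FC and 0.08 ± 0.08 in HIP (SE), with no call, so the probesets of this gene disagreed. No gene had probesets called in opposite directions.

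The second cohort was compared with the first. It was set up months later, and the paper states that reagents differed between the cohorts, so cohort and processing cannot be told apart. In P/FC the median log2 change of the members was 0.09 in cohort 2 and 0.08 in cohort 1, and 67 of the 73 estimates had the same sign in both. In HIP it was -0.02 in cohort 2 and 0.08 in cohort 1, with 34 of 73 of the same sign, and 31 estimates were positive in cohort 2 against 64 in cohort 1. The line change in each cohort was also tested, within the fit of both cohorts and with an error estimated from both. By this test 12 members were higher and 1 lower in P/FC of cohort 1 (3.80% and 4.01% of all probesets). Fits of each cohort on its own are given further below. In P/FC of cohort 2 Mrps6, Mrps2, Mrps30 and Mrpl41 were higher (1.81%) and none was lower (1.98%), and with the limit of 100 there were 8 called in either direction (9.62%). In HIP Mrps6, Mrps2, Mrps25 and Mrpl4 were higher in cohort 1 (0.952%), and Mrps6, Mrps2 and Mrps30 in cohort 2 (0.943%), with none lower in either (1.41% and 1.39%).

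**Figure D3:**
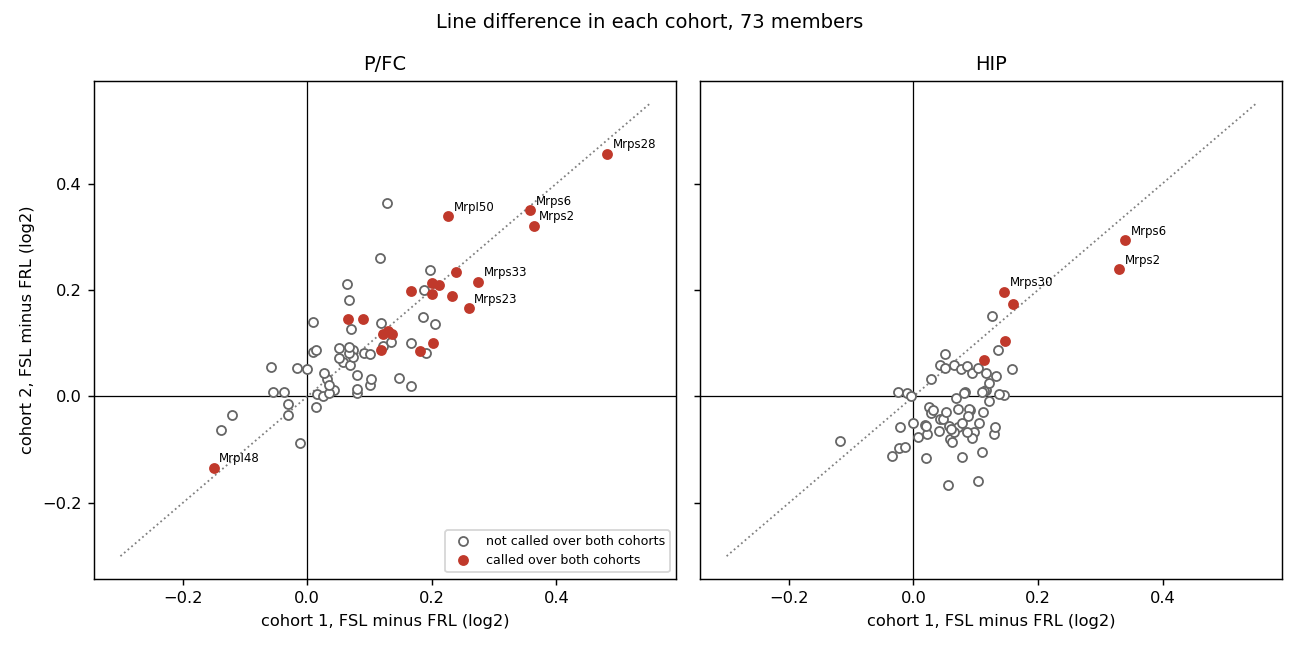
Log2 difference between FSL and FRL rats in cohort 1 (x axis) and cohort 2 (y axis) for the 73 members, in P/FC on the left and HIP on the right. The dotted line marks equal change and filled points were called over both cohorts. P/FC points follow the line, whereas in HIP most open points lie right of 0 in cohort 1 and on both sides of 0 in cohort 2.

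The difference between the cohorts was tested directly, and no member passed after adjustment in either region (limma, 0% of all probesets). At an unadjusted p under 0.05, 10 members in HIP had a lower change in cohort 2 than in cohort 1 (2.25% of all probesets) and none a higher one (2.08%). In P/FC there was none in either direction (2.13% lower and 2.50% higher). The smallest p in HIP was that of Mrpl42, a large subunit protein. Its HIP medians were 331 in FSL and 347 in FRL rats of cohort 2, against 346 in FSL and 319 in FRL rats of cohort 1, so that the order of the lines was opposite. The change in cohort 2 minus that in cohort 1 was -0.21 ± 0.06 (SE, unadjusted p = 0.00085, adjusted p = 1.00). Next were Mrpl15 and Mrpl23, the counterparts of bacterial L15 and L23, with differences of -0.12 ± 0.04 and -0.16 ± 0.06 (SE, adjusted p = 1.00 for each). In P/FC the 3 with the smallest p were Mrps7, Mrpl17 and Mrpl28, with differences of -0.11 ± 0.08, -0.08 ± 0.06 and 0.07 ± 0.06 (SE, adjusted p = 1.00 for each).

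The mean of the 73 members on each array, after centring each gene on its region, showed how far the lines overlapped. In P/FC it lay between -0.09 and 0.15 with a median of 0.10 in FSL rats of cohort 1, against -0.22 to 0.16 with a median of -0.04 in FRL rats. In cohort 2 it lay between -0.08 and 0.26 with a median of 0.03 in FSL rats, against -0.21 to 0.05 with a median of -0.05 in FRL rats. The lines overlapped in every group, and no single member separated them in either cohort of either region (of all probesets, every FSL array was above every FRL array for 0.107% and 0.259% in P/FC of cohorts 1 and 2 and for 0.0925% and 0.268% in HIP, and below for 0.170% and 0.295% in P/FC and for 0.143% and 0.305% in HIP). In HIP the medians were 0.10 in FSL and 0.06 in FRL rats of cohort 1, and -0.06 in FSL and -0.07 in FRL rats of cohort 2. The means of cohort 2 in HIP had the other order, -0.074 in FSL and -0.066 in FRL rats.

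**Figure D4:**
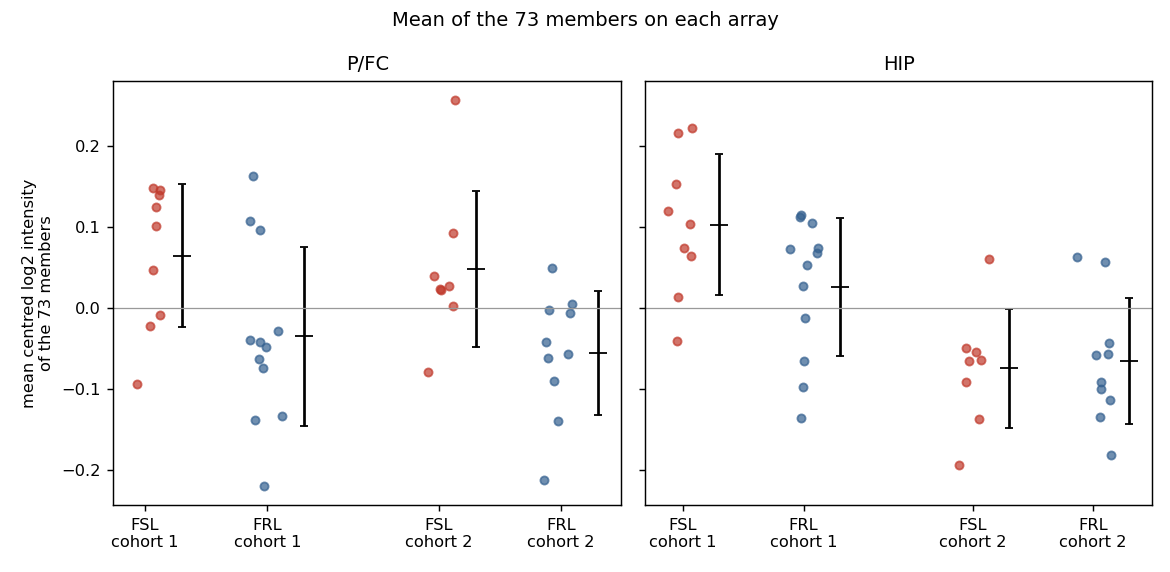
Mean centred log2 intensity of the 73 members (y axis) on each array, for FSL (red) and FRL (blue) rats of cohorts 1 and 2 in P/FC (left) and HIP (right), with the mean ± SD of each group beside the points. In P/FC the FSL median is above the FRL median in both cohorts, and the points of the lines overlap in all groups.

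The members also varied together within groups. After the mean of each line and cohort was removed, the correlation of a member with the mean of the other 72 had a median of 0.59 in P/FC and 0.54 in HIP over 39 arrays. It was highest for Mrpl1 in P/FC (0.84) and Mrpl52 in HIP (0.87). It was lowest for Mrpl57, at -0.38 in P/FC and -0.70 in HIP. Arrays share their labelling and normalisation across genes, and these values are descriptions.

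Whether the line change differed between regions was tested over the 20963 probesets kept in both. No member passed in limma, where 0.0668% of all probesets did, although the median difference was 0.06 and 58 of 73 estimates were larger in P/FC. At an unadjusted p under 0.05 the change was larger in P/FC for 10 members (4.20% of all probesets) and smaller for none (3.74%). The smallest p was that of Mrpl41, whose change was 0.14 ± 0.04 larger in P/FC than in HIP (SE, unadjusted p = 0.0011, adjusted p = 0.28). Mrpl20 and Mrps28 followed with differences of 0.20 ± 0.07 and 0.46 ± 0.17 (SE, adjusted p = 0.43 for each). Members called in P/FC and not in HIP were therefore not shown to differ between the regions.

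The level of the members in P/FC was compared with that in HIP over both lines. It was higher in P/FC for 42 members and lower for 9 (48.5% and 21.1% of all probesets), but after quantile normalisation or median centring over all arrays the counts were 20 higher and 22 lower. The shares of all probesets were then 31.1% higher and 34.3% lower after quantile normalisation and 30.9% and 34.0% after median centring, and the counts of the members did not stand above them. The regions were processed separately, so region and processing cannot be told apart. The members with the largest differences, named after their values were seen, kept their direction under both scalings. Mrpl38 and Mrpl53 of the large subunit were higher in P/FC, by 0.73 ± 0.05 and 0.66 ± 0.02 (log2, SE). Mrpl50 and Mrps31 were lower, by -0.40 ± 0.05 and -0.38 ± 0.03 (log2, SE), although the dimmer Mrpl50 probeset was higher in P/FC by 0.27.

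Other genes of mitochondrial translation were counted by list. Of 5 further ribosomal proteins with other names, such as Dap3, none passed in either region. Among 20 assembly factors tested in P/FC 2 were higher and 1 lower (9.76% and 8.86% of all probesets). Among 19 in HIP 1 was higher and 1 lower (3.20% and 4.13% of all probesets). The assembly list did not stand clear of these shares, and its called genes are described singly. Malsu1, which acts in the assembly of the large subunit, had intensities with a median of 281 in FSL and 241 in FRL rats in P/FC and of 272 in FSL and 242 in FRL rats in HIP. Its log2 change was 0.26 ± 0.04 in P/FC and 0.17 ± 0.04 in HIP (SE, adjusted p = 7.0e-05 and 0.0017). Mpv17l2, which also acts in assembly, changed by -0.20 ± 0.06 in P/FC and -0.11 ± 0.03 in HIP (SE, adjusted p = 0.0245 and 0.028). The third, Mterf4, changed by 0.12 ± 0.04 in P/FC (SE, adjusted p = 0.028) and gave 0.06 ± 0.05 in HIP (SE, adjusted p = 0.45).

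Of 10 translation factors tested in P/FC 2 were higher and 1 lower (9.76% and 8.86% of all probesets). Of 10 tested in HIP 1 was higher and 1 lower (3.20% and 4.13% of all probesets). Tufm, the elongation factor that brings aminoacyl-tRNA to the ribosome, had a median of 445 in FSL and 384 in FRL rats in P/FC and of 417 in FSL and 375 in FRL rats in HIP. Its log2 change was 0.19 ± 0.03 in P/FC and 0.13 ± 0.03 in HIP (SE, adjusted p = 3.75e-05 and 0.00051). Tsfm, which recharges Tufm, changed by 0.10 ± 0.04 in P/FC (SE, adjusted p = 0.048). Gfm2, which takes part in recycling of the ribosome, changed by -0.16 ± 0.06 in P/FC and -0.27 ± 0.06 in HIP (SE, adjusted p = 0.040 and 0.0054).

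Of 13 mitochondrial aminoacyl-tRNA synthetases tested in P/FC, Nars2 was lower (-0.39 ± 0.12, SE, adjusted p = 0.0205). The share lower was 7.69%, under the 8.86% of all probesets. Of 12 synthetases tested in HIP, where Nars2 was too dim to be tested, Rars2 was higher (0.15 ± 0.03, SE, adjusted p = 0.00030), against 3.20% of all probesets. Of 13 genes for the upkeep and transcription of mitochondrial DNA tested in each region, 3 were higher in P/FC (9.76% of all probesets) and 1 in HIP (3.20%). The largest change was that of Tk2, the mitochondrial thymidine kinase, with a median of 93.7 in FSL and 60.6 in FRL rats in P/FC and of 124 in FSL and 86.8 in FRL rats in HIP. Its log2 change was 0.64 ± 0.10 in P/FC and 0.54 ± 0.07 in HIP (SE, adjusted p = 2.0e-05 and 2.9e-06). Slirp and Twnk were the others, at 0.13 and 0.16 in P/FC. Among 8 regulators of mitochondrial biogenesis tested, Ppargc1a, a coactivator of many mitochondrial genes, was higher in P/FC (0.26 ± 0.05, SE, adjusted p = 0.00035) and gave 0.10 ± 0.04 in HIP with no call. In P/FC 12.5% of these regulators were thus higher, against 9.76% of all probesets.

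Genes of oxidative phosphorylation encoded in the nucleus, the machinery that the mitochondrial ribosome helps to complete, had 23 of 73 higher and 4 lower in P/FC and 8 higher and 3 lower in HIP, with median log2 changes of 0.05 and 0.01. The shares of all probesets were 9.76% higher and 8.86% lower in P/FC and 3.20% and 4.13% in HIP. In HIP the share of oxidative phosphorylation genes lower, 4.11%, was close to that of all probesets. For the cytosolic ribosome, the 39 protein genes found by symbol with a mean intensity above 30 were counted, which need not be all of them. These had none higher and 6 lower in P/FC (15.4%) and none higher and 1 lower in HIP (2.56%, under the share of all probesets), with medians of -0.06 and -0.03. The difference between these lists and the members was not tested.

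**Figure D5:**
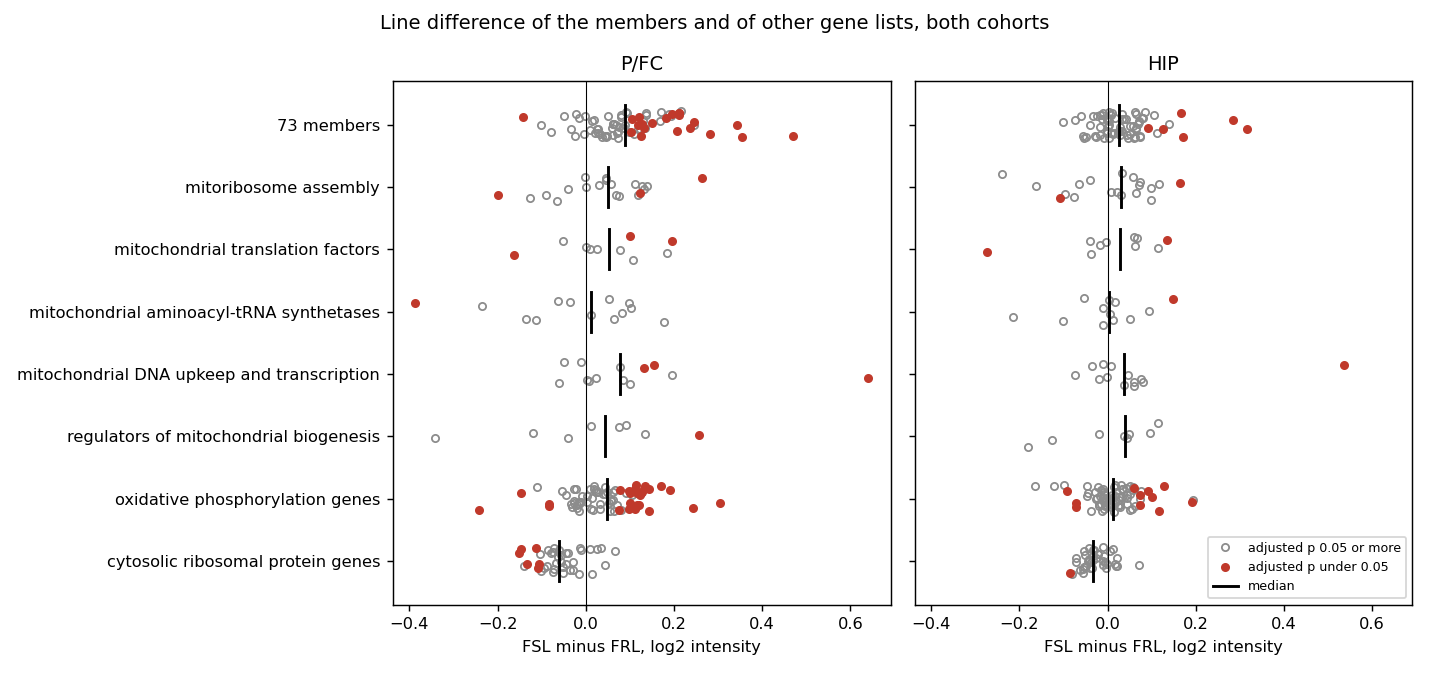
Log2 difference between FSL and FRL rats over both cohorts (x axis) for each gene of the members and of 7 other lists (y axis), in P/FC (left) and HIP (right). Points are genes, filled where the adjusted p was under 0.05, and the black bar is the median of the list. The median of the members in P/FC is 0.09 and that of the cytosolic ribosomal protein genes is -0.06.

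Markers of some other cells and a measure of RNA integrity moved with the line. Of 9 astrocyte markers 7 were lower in FSL rats in P/FC (8.86% of all probesets) and 5 in HIP (4.13%), and none was higher. Their summed intensity ranged between 11904 and 14504 in FSL and 11761 and 18098 in FRL rats in P/FC, and between 14847 and 16283 in FSL and 15144 and 18178 in FRL rats in HIP, and none of the 9 was at or below 30 in either line. In tissue of mixed cells, fewer cells of a type and less RNA per cell cannot be told apart. Of 6 endothelial markers 4 were lower in P/FC and 1 in HIP, and of 10 neuronal markers 5 were higher and 1 lower in P/FC and 3 higher and 1 lower in HIP. The share higher over all probesets was 9.76% in P/FC and 3.20% in HIP. Of 7 oligodendrocyte and 4 choroid plexus markers tested, none passed in either region. Of 9 microglial markers tested in P/FC 22.2% were lower and none higher. Of 8 tested in HIP 12.5% were higher and 12.5% lower. Of 8 striatal markers 2 were higher in P/FC, where their sum had a median of 3597 in FSL and 1962 in FRL rats, with ranges of 1535 to 6122 in FSL and 1434 to 6067 in FRL rats. The log2 ratio of 3' to 5' control probesets of Gapdh averaged 0.74 ± 0.05 in FSL and 0.83 ± 0.09 in FRL rats in P/FC of cohort 1 (SD, n = 9 and 12, exact permutation test, two-sided, adjusted over 8 tests, p = 0.025). That of Actb averaged 0.60 ± 0.03 in FSL and 0.72 ± 0.09 in FRL rats in HIP of cohort 1 (SD, n = 9 and 12, same exact test, adjusted p = 0.010) and 0.73 ± 0.04 in FSL and 0.82 ± 0.07 in FRL rats in HIP of cohort 2 (SD, n = 8 and 10, same exact test, adjusted p = 0.024). In the other 5 comparisons FSL rats were also lower, with adjusted exact p values between 0.060 and 0.74.

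The calls depended on these measures when they entered the fit as covariates. With the mean level of the astrocyte markers, 1 member passed in P/FC (Mrps6) and 1 in HIP (Mrps2), while the median change in P/FC was 0.07 and that of all probesets 0.01, and over all probesets 1.09% were higher and 0.966% lower in P/FC and 0.536% higher and 0.703% lower in HIP. With the Gapdh ratio 7 members remained called in P/FC, namely Mrps6, Mrps2, Mrps30, Mrps9, Mrps35, Mrpl21 and Mrpl41, while over all probesets 1.70% were higher and 2.11% lower. With the Actb ratio Mrps6 and Mrps2 remained called in HIP, where 0.744% of all probesets were higher and 1.30% lower. In P/FC 14 members were higher and 1 lower with the Actb ratio (6.91% and 6.25% of all probesets), and the same counts were found with the striatal markers (7.02% and 6.29%). Of the calls lost in P/FC, the estimate of Mrps28 was 0.39 with the Gapdh ratio and 0.49 with the astrocyte markers (0.47 without a covariate), and that of Mrps33 was 0.21 and 0.20 (0.25 without). Estimates of other lost calls fell further. Over all alternative fits, the lowest estimate of Mrpl20 was 0.07 (0.21 without a covariate) and that of Mrps2 was 0.17 (0.34 without). Among others that fell lower than Mrpl20 were Mrpl15 (0.05), Mrpl19 (0.04) and Mrpl55 (0.03). Read from a dimmer probeset, Mrps22 (0.03), Mrps9 (0.02) and Mrpl50 (-0.01) did so too. The measures differ between the lines, and their part in the result was not tested.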

How the data were processed

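Messenger RNA of 78 tissue samples was hybridised to Affymetrix rat arrays, 1 array per rat and region. The deposited values are 1 intensity per probeset and array, which the authors normalised across arrays with Rosetta Resolver on a linear scale after background subtraction. Groups were taken from the strain, tissue and cohort in the labels, although the source label of FSL frontal cortex and the description of FSL hippocampus also carry the letters FRL. Nothing was pooled here.

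Gene symbols came from the platform annotation, and the 57 control probesets were left out. Intensities under 1 were set to 1 and log2 was taken. Regions were fitted separately in limma 3.58.1 (R 4.3.3) with 4 group means (line by cohort), and p-values were adjusted by Benjamini-Hochberg over all probesets kept in the region. Both regions entered 1 fit for the region contrasts. The labelling batch in the model of the study is not in the labels and was not used. Ratios of control probesets were compared by exact permutation in scipy 1.17.1. The fits were tested on simulated data. Alternatives changed the filter, normalisation, log2 treatment, choice of probeset, test, covariates and pairing. The number of arrays limits the precision.

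Genes were named by rule, namely the 5 largest changes in each direction per region among those called, the 3 smallest p values for each difference, the 3 brightest and dimmest members, and up to 3 genes with the smallest adjusted p per other list. Other members called were named after their values were seen. The members and lists were chosen with earlier results of these data known.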

Additional observations from a re-analysis of the deposited data

Results flagged for a closer look

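The arrays of 1 line, region and cohort were checked for each of a number of named genes. In 8 of the 156 combinations of gene and group checked, 1 array stood apart from the rest of its group. Chance alone gives this in about 5% of independent combinations, and combinations that share arrays are not independent. In P/FC of FSL rats of cohort 2 this held for Mrpl17 (highest array 1006, next 910, group median 897, n = 8), Mrpl42 (highest 549, next 473, median 455), Mrpl52 (highest 288, next 221, median 186) and Mrps2 (lowest 291, next 352, median 363). The arrays of Mrpl42 and Mrpl52 were the same, replicate 7, whose mean over the members was 0.26, the highest in its group. In P/FC of FSL rats of cohort 1 the lowest Mrpl38 array was at 96.2, with the next at 142 and a median of 156 (n = 9). In P/FC of FRL rats of cohort 2 the highest Mrpl50 array was at 174, with the next at 124 and a median of 108 (n = 10). In HIP of FSL rats the highest Mrpl28 array of cohort 1 was at 331 (next 297, median 290, n = 9) and the lowest Mrpl41 array of cohort 2 at 429 (next 459, median 467, n = 8). The low Mrps2 array lies against the direction of its line difference, and the high Mrpl50 array of FRL rats likewise.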

How the results depend on the processing

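Over both cohorts the number of members called was 21 in P/FC and 6 in HIP, and the alternatives that moved these counts most were covariates. In P/FC 7 were called with the Gapdh ratio and 1 with the astrocyte markers, and in HIP 2 with the Actb ratio and 1 with the astrocyte markers. With each cohort fitted separately 7 were called in P/FC of cohort 1 (13 otherwise), 2 in HIP of cohort 1 (4 otherwise) and 1 in HIP of cohort 2 (3 otherwise), where 1 was also called with no filter. Counts over all probesets moved too. In P/FC of cohort 1 the separate fit called 524 higher and 617 lower (849 and 896 otherwise). In HIP it called 122 and 210 in cohort 1 (206 and 305 otherwise) and 189 and 299 in cohort 2 (204 and 300 otherwise). In P/FC of cohort 1 the Gapdh ratio gave 2, the Actb ratio 5, the astrocyte markers 1 and the striatal markers 2. Over all probesets these 4 fits called 186, 417, 190 and 165 higher and 254, 479, 202 and 186 lower, in that order. In P/FC of cohort 2 (4 otherwise) the limit of 100 gave 8, median centring 7, the first residual component 10, the Gapdh ratio 1 and the astrocyte markers 1. Over all probesets 404 were higher and 442 lower otherwise. Median centring gave 481 and 426 and the first residual component 646 and 697. With the Gapdh ratio there were 82 and 126, and with the astrocyte markers 73 and 94. In HIP the Actb ratio and the astrocyte markers each gave 1 in cohort 1, and in cohort 2 the Actb ratio gave 1 and the astrocyte markers 0. Over all probesets the Actb ratio gave 71 higher and 138 lower in cohort 1 and 87 and 147 in cohort 2. The astrocyte markers gave 93 and 126 in cohort 1 and 48 and 73 in cohort 2. Among 579 alternative fits of 40 results for single genes, 508 kept direction and side of the threshold, 69 lost the call (56 of them with a covariate) and 2 turned the direction. Both were Mrpl50 read from its dimmest probeset, at -0.011 for the line change in P/FC and 0.27 for the level in P/FC minus HIP. The cause was not tested in any of these. No fit left out a replicate, since each group held more than 5 arrays.

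Replicate numbers were not taken to pair the arrays in the fits given above. Deviations of FSL and FRL arrays of the same number correlated at -0.14 to 0.37 in P/FC, with a median of 0.15 (10 of 17 pairs over 0.1). In HIP they correlated at -0.16 to 0.42, with a median of 0.09 (8 of 17). Arrays of unlike number were not compared, so these values do not decide whether the numbers mark a pairing. With the replicate number as a block, 22 members were called in P/FC and 5 in HIP over both cohorts. Over all probesets this fit called 2120 higher and 1781 lower of 22370 in P/FC. In HIP it called 845 higher and 1247 lower of 21630. Mrpl15, Mrpl55 and Mrps22 lost their call in P/FC and Mrps9 lost its call in HIP. In single cohorts 2 were called in P/FC of cohort 2 (285 higher and 261 lower over all probesets) and 1 in HIP of cohort 2 (180 and 252). Probesets near background have large errors, so a change of a dim member may not be detectable here.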
